A study of Drosophila melanogaster with 2 samples.

Results

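The genes of triglyceride storage and breakdown examined here are 10 Drosophila genes chosen by name, out of 13945 protein-coding genes annotated on the chromosome arms. They comprise the lipase genes Lip3, mag, bmm and Hsl, the lipid droplet genes Lsd-2 and Seipin, and the synthesis genes Gpat4, Agpat4, Lpin and mdy. For each gene, every peak was taken whose summit lay within 2 kb of a transcription start site (TSS) or inside the gene span. Of the 2790 thresholded peaks, 11 met this rule, as did 52 of the 30000 pooled candidates, 41 of the 30000 candidates of replicate 1 and 50 of the 30000 of replicate 2. The peaks come from ChIP-seq, which sequences DNA bound by a protein, of the ceramide synthase schlank fused at its C terminus to GFP. Both biological replicates were whole embryos of mixed sex, aged 0 to 24 h, from 1 transgenic fly line, so there is 1 group and no contrast between conditions. The promoter that drives the fusion protein is not given in the sources used here, and whole embryos pool all cell types. The labels give schlank as the antibody target of each library but also describe each as an input control; here both are taken as schlank ChIP because of the stated target.

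Triglycerides are built by adding fatty acids to glycerol 3-phosphate, removing the phosphate and adding the last fatty acid. They are stored in cytoplasmic lipid droplets, whose protein coat controls the access of lipases. In Drosophila the main store is the fat body, which forms in the embryo, and yolk lipid feeds the embryo itself. schlank makes ceramide and carries a homeodomain, and earlier genetic work on flies linked it to lipase expression and body fat.

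The sequences below are a selection from the 11 windows under thresholded summits of these genes, 6 of which held TAATTA. The windows of Lpin, Seipin and Gpat4, which held no TAATTA, are not printed. The promoter of Lip3, which had no thresholded peak, is also shown. It is not a summit window, so its motifs cannot be set beside those of the windows. Hsl, also without a thresholded peak, did hold TAATTA in the same stretch before its 5′ end. They are read 5′ to 3′ on the strand of the gene from the NCBI Release 6 assembly, which shares its coordinates with dm6. Windows reach 100 bp to either side of the summit, cut where an annotated UTR begins. Capitals mark matches on either strand to the 8 motifs searched, namely the homeodomain-type cores TAATTA and TAATGA, the Dref site TATCGATA, the repeat GAGAGAG of the GAGA factor, the TATA box TATAAA, the E-box CACGTG, the forkhead-type sequence GTAAACA and the GATA-type core AGATAA, the last added after the sequences were read.
bmm intron, strongest summit, chr3L:14784974-14785174, minus strand: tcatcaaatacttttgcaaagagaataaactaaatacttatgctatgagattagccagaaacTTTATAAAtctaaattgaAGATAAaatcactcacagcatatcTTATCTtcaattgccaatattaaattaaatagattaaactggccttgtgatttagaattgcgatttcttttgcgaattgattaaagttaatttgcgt
bmm promoter, chr3L:14786413-14786593, minus strand: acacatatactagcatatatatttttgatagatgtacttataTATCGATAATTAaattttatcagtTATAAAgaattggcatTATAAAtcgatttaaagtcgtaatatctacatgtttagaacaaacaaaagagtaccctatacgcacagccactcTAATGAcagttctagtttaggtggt
Lsd-2 intron, chrX:15075030-15075230, minus strand: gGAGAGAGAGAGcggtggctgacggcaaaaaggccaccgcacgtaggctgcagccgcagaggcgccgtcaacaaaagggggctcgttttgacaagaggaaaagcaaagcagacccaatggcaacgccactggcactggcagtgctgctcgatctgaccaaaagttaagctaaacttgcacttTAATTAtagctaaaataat
Agpat4 intron, chr3L:16380916-16381116, minus strand: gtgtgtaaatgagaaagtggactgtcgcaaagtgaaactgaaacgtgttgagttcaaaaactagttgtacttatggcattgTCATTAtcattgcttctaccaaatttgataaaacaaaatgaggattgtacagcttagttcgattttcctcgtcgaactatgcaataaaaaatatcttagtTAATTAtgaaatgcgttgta
mdy intron, chr2L:16819823-16820023, plus strand: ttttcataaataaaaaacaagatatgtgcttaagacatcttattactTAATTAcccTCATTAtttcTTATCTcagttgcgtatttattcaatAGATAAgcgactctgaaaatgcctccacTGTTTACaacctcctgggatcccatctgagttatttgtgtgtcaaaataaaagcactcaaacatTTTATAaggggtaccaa
Lip3, the 300 bases before its TSS, chr3R:13371905-13372204, minus strand: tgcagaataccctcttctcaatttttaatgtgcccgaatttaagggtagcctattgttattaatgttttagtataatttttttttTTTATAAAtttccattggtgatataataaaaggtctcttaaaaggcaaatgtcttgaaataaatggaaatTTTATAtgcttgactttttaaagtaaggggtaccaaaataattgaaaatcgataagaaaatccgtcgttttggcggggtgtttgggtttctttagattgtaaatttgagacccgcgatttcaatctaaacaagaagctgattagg

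Of the 10 genes, 7 had at least 1 thresholded summit, namely bmm, Lsd-2, Seipin, Gpat4, Agpat4, Lpin and mdy. All of the genes of synthesis and of the droplet were among them, and 1 of the 4 lipase genes, bmm. Over all protein-coding genes the share with a thresholded summit was 21.0% (2927 of 13945), near that of the lipase genes. In the list of other genes of triglyceride metabolism below, the order of the roles differed. There 4 of 6 lipases and hydrolases, 3 of 7 genes of synthesis and 1 of 4 droplet genes had one. Longer genes hold more summits. Among genes with a span under 5 kb, 16.1% had a thresholded summit and 3 of 6 of these genes did, and among those of 5 to 20 kb the shares were 32.7% and 4 of 4. Within 500 bp of a TSS the count was 5 of 10 (bmm, Seipin, Gpat4, Agpat4 and Lpin), against 12.7% of protein-coding genes. With the 2790 strongest candidates of replicate 1 alone in place of the thresholded set, these counts were 5 of 10 (20.7% of protein-coding genes) and 3 of 10 (12.9%), with Seipin and Agpat4 missing from both. With those of replicate 2 alone they were 7 (20.5%) and 6 (12.2%). The genes were chosen by name with earlier results of these data known, so no test was made of these counts.

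**Figure D1:**
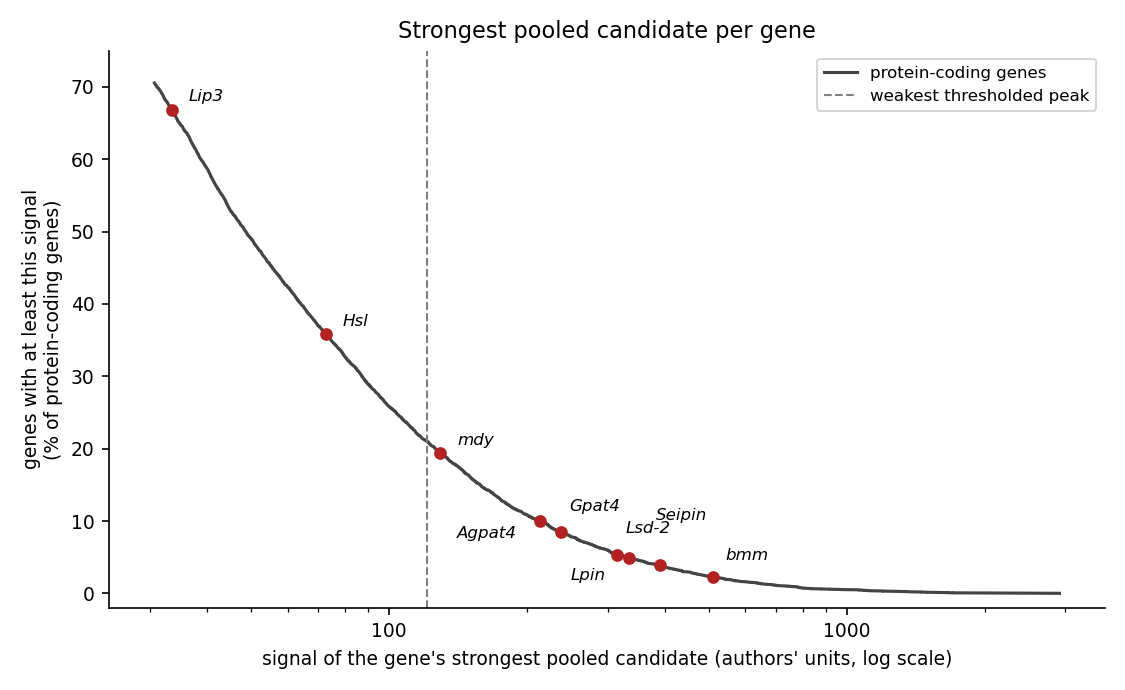
Signal of the strongest pooled candidate of each protein-coding gene (x axis, log scale, the authors' units) against the percentage of the 13945 genes with at least that signal (y axis), with the 9 genes that had a pooled candidate as points. Lip3 and Hsl lie left of the dashed line at the weakest thresholded peak (signal 121), and bmm lies farthest right with a signal of 509.

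Weak candidates were common and did not set the genes apart. A pooled candidate was present at 9 of the 10 genes and at 70.5% of protein-coding genes, one of replicate 1 at 9 (67.7%) and one of replicate 2 at 9 (72.1%). The strength of the candidates differed more. Ranked by signal, the strongest pooled candidate of each gene had a median rank of 3.29% of the list over the 10 genes, with mag, which had none, placed at the end. The same median over all protein-coding genes was 43.4%, and it was 18.8% for genes of 5 to 20 kb and 60.2% for shorter genes. The 3.29% mixes both classes, so neither class median is its like. The 4 of the 10 genes with a span of 5 to 20 kb were at 0.72% to 8.38%. The 6 shorter ones were at 1.22% (Seipin), 3.0% (Gpat4), 3.59% (Agpat4), 21.9% (Hsl), 86.5% (Lip3) and, for mag, the end. In replicate 1 the medians were 8.7% for the 10 genes and 46.7% for all, and in replicate 2 they were 2.64% and 41.8%. The signal is the authors' value per peak, its scale differs between lists, and read depth is unknown, so ranks within a list are what can be set side by side.

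**Figure D2:**
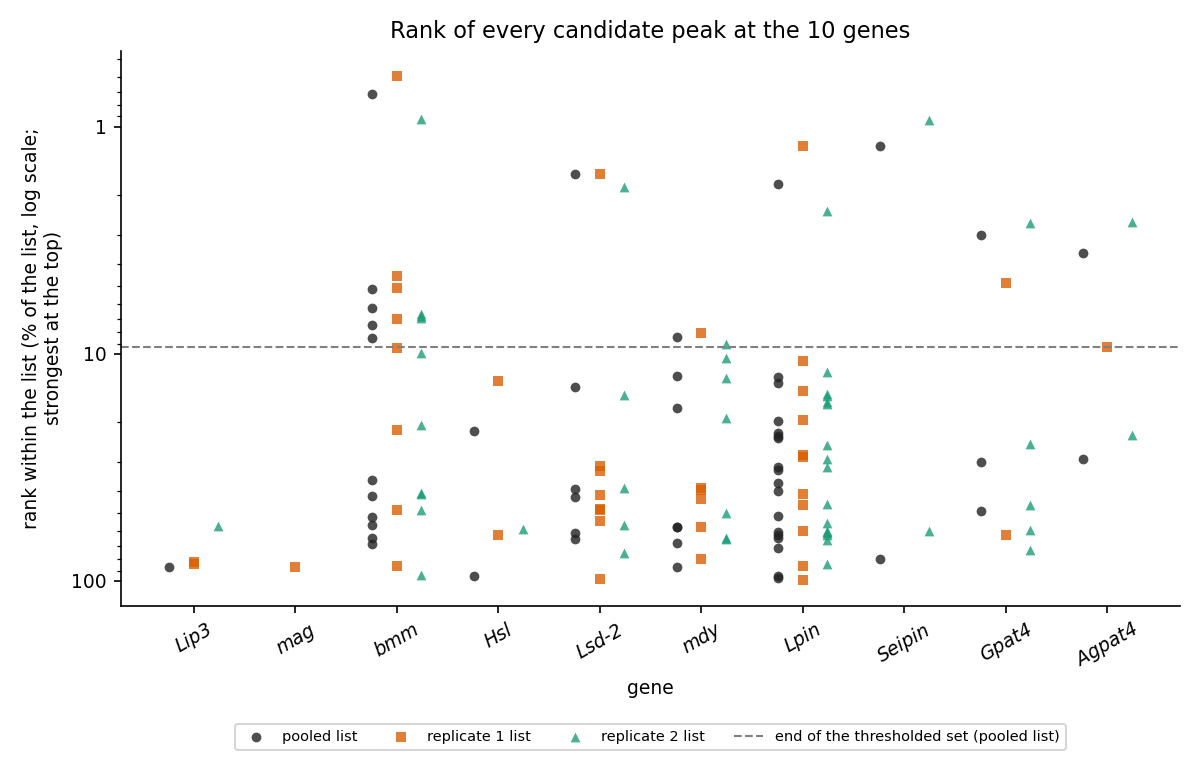
Rank of every candidate at the 10 genes within its own list, as a percentage of the 30000 candidates (log axis, strongest at the top). Circles are the pooled list, squares replicate 1 and triangles replicate 2, and the dashed line marks the 9.3% of the pooled list that form the thresholded set. Lip3, mag and Hsl have no point above the line, and Seipin has no square.

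The lipase genes ranged from the most to the least strongly marked of the set. bmm (brummer, FBgn0036449, dm6 3L, 14776496 to 14786412, minus strand) encodes the fly homologue of adipose triglyceride lipase, which releases fatty acids from droplets. It held 5 thresholded summits, a number reached by 0.405% (10 of 2471) of protein-coding genes of 5 to 20 kb. The limit of 5 is the count of bmm itself, the highest of the 10 genes, so this share is no test of its rarity. The strongest lay in an intron at 14785074, 1338 bp downstream of the TSS, with a pooled signal of 509 (rank 216 of 2790). Replicate 1 had a signal of 171 there (rank 179 of its 30000) and replicate 2 had 325 (rank 277), so both placed it in the first 1% of their lists. Only 2.3% of protein-coding genes had a stronger pooled candidate than bmm, and 3.64% of those of 5 to 20 kb.

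A pair of thresholded summits stood upstream of bmm. That at 14786493, 81 bp upstream of the TSS, had a signal of 139.9 (rank 2226), with 57.4 in replicate 1 (rank 1534) and 85.6 in replicate 2 (rank 2965). Its neighbour at 14786721 had a signal of 154 (rank 1889), with 47.6 in replicate 1 (rank 2109) and 106 in replicate 2 (rank 2052). It lay 309 bp upstream of bmm but 70 bp from the TSS of Tdrd3, a divergent gene for a Tudor domain protein. The remaining thresholded summits were intronic, at 14780396 (signal 172, rank 1551) and 14781422 (signal 128, rank 2557), 6016 and 4990 bp from the TSS. Measured to the TSS of any gene, the former was nearest to mop, a gene that lies beyond the 3′ end of bmm, at 4267 bp. Another 6 pooled candidates of bmm ranked between 10726 and 20545, far below the thresholded set.

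Hsl (FBgn0034491, dm6 2R, 20257650 to 20261726, plus strand), the fly hormone-sensitive lipase, had no thresholded peak. Its strongest pooled candidate, at 20257431, had a signal of 72.8 (rank 6573 of 30000), with 33.5 in replicate 1 (rank 3952) and 31.3 in replicate 2 (rank 17789). The replicates thus placed it at 13.2% and 59.3% of their lists. This summit lay 219 bp upstream of Hsl and 41 bp from the divergent gene Ate1, which encodes an arginyltransferase. The other pooled candidate, in the 3′ UTR, had a signal of 31.6, close to the lowest of the pooled list (30.7).

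Lip3 and mag carried the weakest marks of the 10 genes. Lip3 (FBgn0023495, dm6 3R, 13370240 to 13371904, minus strand) encodes a lipase of the acid lipase family. Its only pooled candidate, 10 bp downstream of the TSS, had a signal of 33.5 and ranked 25950, and 66.9% of protein-coding genes had a stronger one. Replicate 1 placed candidates of 13.8 and 13.9 at 29 bp downstream and 254 bp upstream of the TSS, at ranks 25266 and 24781. Replicate 2 had none within 200 bp of those summits, but 1 with a signal of 31.9 (rank 17167) at 494 bp upstream, which was 232 bp from the TSS of CG34309. The closest summits of the replicates lay 240 bp apart, beyond the 200 bp taken here as the same site, although their peak intervals overlapped by 123 bp. The 300 bases before the TSS, printed above, held 3 TATA box matches, which overlap in part, and no homeodomain-type core.

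mag (magro, FBgn0036996, dm6 3L, 20460683 to 20462274, plus strand) encodes a secreted gut lipase. It had no candidate in the pooled list or in replicate 2. The single candidate of replicate 1, with a signal of 13.5 (rank 26123), lay beyond the 3′ end of the gene, 1747 bp from its TSS. The lowest signal in that list was 12.5.

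**Figure D3:**
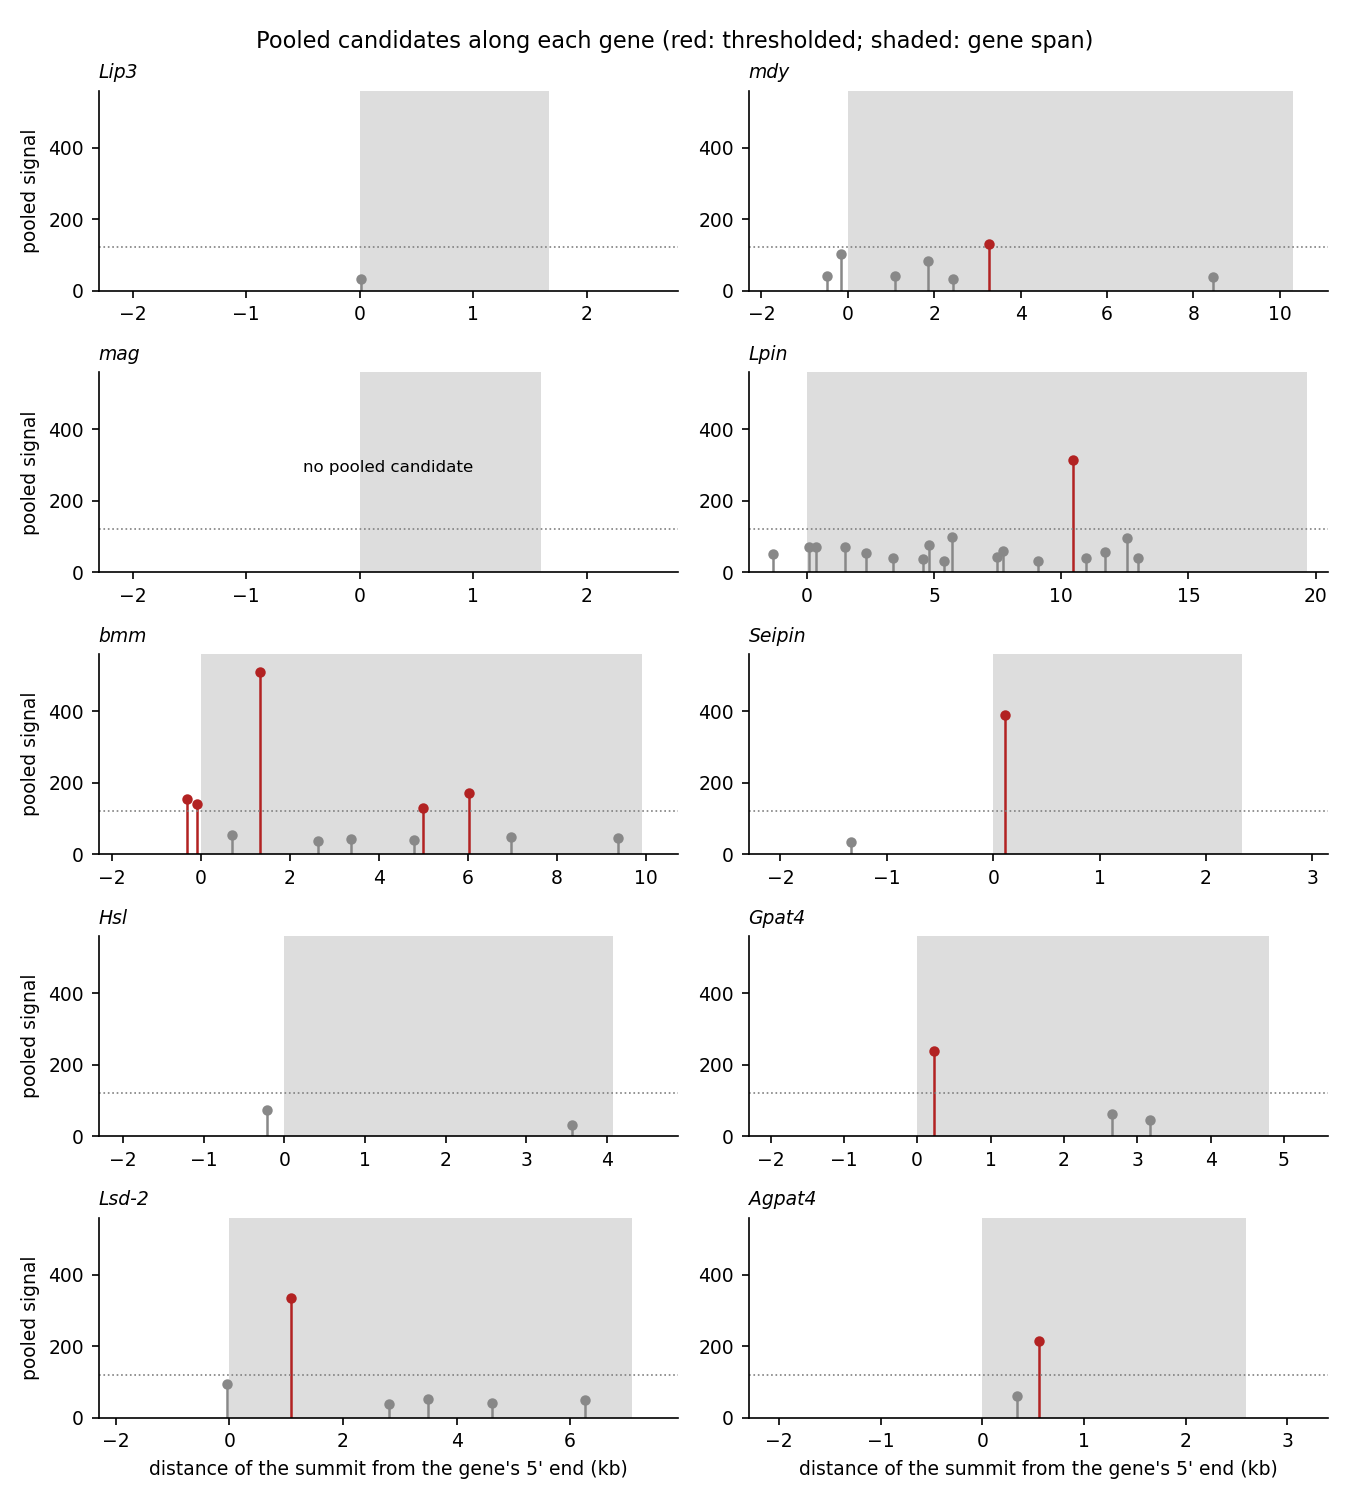
Pooled candidates along the 10 genes, each drawn as a line at the distance of its summit from the 5′ end of the gene (x axis, kb, positive downstream) with its signal (y axis, authors' units, same scale in all panels). Red marks thresholded peaks, grey the other candidates, the shaded band the gene span and the dotted line the weakest thresholded signal (121); bmm shows 5 red lines, and Lsd-2, mdy, Lpin, Seipin, Gpat4 and Agpat4 show 1 each.

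Both droplet genes had 1 strong thresholded summit close to the 5′ end. Lsd-2 (FBgn0030608, dm6 X, 15069127 to 15076220, minus strand) encodes a perilipin, a coat protein that shields droplets from lipases. Its summit at 15075130, in an intron 1090 bp downstream of the only annotated TSS, had a pooled signal of 335 (rank 483). The replicates agree closely in rank, with 106 in replicate 1 (rank 484) and 222 in replicate 2 (rank 552). A further candidate stood 37 bp upstream of the TSS with a signal of 94.1 (rank 4210), below the thresholded set, with 21.8 in replicate 1 and 66.8 in replicate 2. The other 4 pooled candidates of Lsd-2 ranked between 11744 and 19625.

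Seipin (FBgn0040336, dm6 X, 2619799 to 2622140, plus strand) encodes an endoplasmic reticulum protein that organises droplet formation. Its thresholded summit lay in the 5′ UTR at 2619914, 115 bp downstream of the TSS, with a signal of 391 (rank 366), the second strongest of the 11. Replicate 2 had its own summit at the same base, with a signal of 322 (rank 281). Replicate 1 had no candidate at Seipin at all, and its nearest lay 11016 bp away. Of the 366 thresholded peaks at least as strong as this one, 365 had a replicate 1 candidate within 200 bp, so Seipin was the single exception. The divergent gene Tsp3A, which encodes a tetraspanin, also has a TSS within 500 bp of the thresholded summit and so shares it. The other pooled candidate in reach (signal 34.9, rank 24075) lay inside Tsp3A, 1272 bp from that TSS.

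The genes of triglyceride synthesis each had 1 thresholded summit. Gpat4 and Agpat4 encode acyltransferases that attach the first and the next fatty acid to the glycerol backbone. The Gpat4 summit (FBgn0034971, dm6 2R, 24068757 to 24073552, plus strand) lay at 24068990 in the 5′ UTR, 60 bp upstream of the second of its annotated TSSs. Its pooled signal was 237 (rank 899), with 59.0 in replicate 1 (rank 1457) and 182 in replicate 2 (rank 794), and the summits of the 3 lists lay within 7 bp of the pooled one. Only 8.44% of protein-coding genes had a stronger pooled candidate.

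Agpat4 (FBgn0036622, dm6 3L, 16378974 to 16381570, minus strand) had its summit in an intron at 16381016, 165 bp downstream of an annotated TSS. The pooled signal was 214 (rank 1076). Its rank differed between the replicates, with a signal of 182 in replicate 2 (rank 789) and 40.8 in replicate 1 (rank 2804). The latter falls just outside the 2790 strongest of that replicate, the last of which had a signal of 40.9. The upstream neighbour Agpat3, a gene of the same family, has a TSS within 2 kb of this summit and so shares it.

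Lpin (FBgn0263593, dm6 2R, 8136986 to 8156654, minus strand) encodes lipin, which removes the phosphate from phosphatidic acid to give diacylglycerol. It was the longest of the genes, at 19.7 kb with 11 transcripts and 4 TSSs, and had 18 pooled candidates, the most of the set. A single one was thresholded. It lay at 8146212, 231 bp upstream of an internal TSS of Lpin and inside an intron of the longer transcripts, with a signal of 314 (rank 535). Replicate 1 had 122 there (rank 364) and replicate 2 had 197 (rank 701). The next strongest Lpin candidate had a pooled signal of 100.2 (rank 3794) and lay inside both Lpin and kermit, which encodes a PDZ domain protein and shares the outermost TSS of Lpin. Candidates at that shared TSS were weaker, with signals of 70.5 and 72.1 at 86 and 335 bp downstream (ranks 6919 and 6681).

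mdy (midway, FBgn0004797, dm6 2L, 16816660 to 16826964, plus strand) encodes diacylglycerol acyltransferase, which adds the last fatty acid. Its thresholded summit was weak, at 16819923 with a signal of 129 (rank 2515), and 30.2% of protein-coding genes of 5 to 20 kb had a stronger candidate. Replicate 1 had 44.4 there (rank 2416) and replicate 2 had 73.7 (rank 3838), with a second replicate 2 summit of 83.4 (rank 3114) at 16819754. It lay in an intron of mdy, 2815 bp from its nearest TSS, and also inside CG13280 on the other strand, whose TSS was nearer at 1170 bp. The candidate at the promoter of mdy, 167 bp upstream, had a pooled signal of 101 (rank 3756) and missed the thresholded set. Replicate 2 had 90.1 there (rank 2699), and replicate 1 had no candidate within 200 bp.

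The 11 thresholded summits of these genes had signals of 128 to 509 with a median of 214, against 183 over all 2790 peaks. Of the 11, 6 ranked in the stronger 50% of the set. By position 7 lay in introns, 2 in 5′ UTRs and 2 upstream, and 0 in coding exons. For 8 of the 11 the nearest TSS of any gene was the gene's own. The exceptions were a bmm summit nearer to Tdrd3, a bmm summit nearer to mop and the mdy summit nearer to CG13280.

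Replicate support was as high as in the whole set, apart from Seipin. Of the 11 summits, 10 had a candidate within 200 bp in both replicates (90.9%), against 94.6% of all thresholded peaks. Of the 41 pooled candidates below the thresholded set, 14 (34.1%) were matched in both, against 32.1% of all such candidates. A replicate candidate could match more than 1 pooled candidate. The only replicate 1 candidate at Agpat4 was matched both to the thresholded summit and to a weaker pooled candidate there. Across the 24 pooled candidates of the genes matched in both replicates, the signals correlated with Spearman's rho 0.856 and with Pearson's r of log2 signal 0.871, and over all 11374 such candidates these were 0.563 and 0.703. Of the 24, 10 were thresholded, against 2640 of the 11374, so strong peaks were a larger share at these genes. The Seipin summit is not among the 24 because replicate 1 had no match. These coefficients are across peaks that share both libraries and, in part, a gene, and they are given as descriptions.

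**Figure D4:**
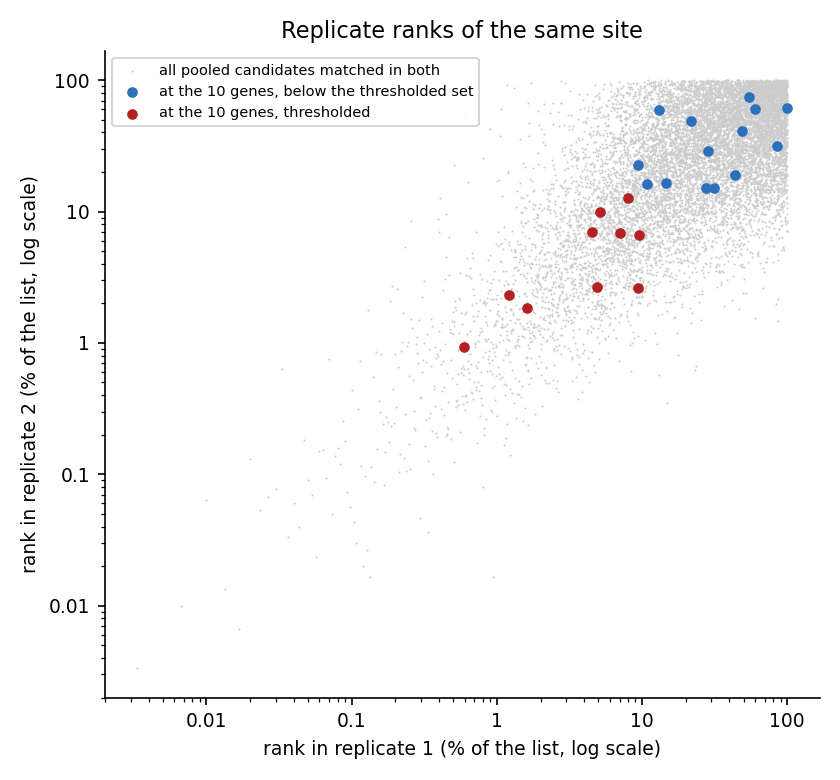
Rank of the same site in replicate 1 (x axis) and replicate 2 (y axis), as a percentage of each list on log axes. Grey points are all 11374 pooled candidates matched in both replicates, blue points the 14 at these genes below the thresholded set and red points the 10 thresholded ones; the red points lie at 0.597% to 9.46% in replicate 1 and 0.923% to 12.8% in replicate 2.

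The windows under the 11 summits had a median GC content of 32.3% (range 26.9% to 51.7%). It was 37.8% over all thresholded summits and 43.3% over all pooled candidates. This low median rests in large part on bmm, which gave 5 of the 11 windows, at 26.9% to 38.3%. The windows of the other genes were at 30.35% (Lpin), 32.34% (mdy), 32.84% (Agpat4), 42.29% (Seipin), 50.25% (Gpat4) and 51.74% (Lsd-2). The extremes were the strongest bmm summit, with the lowest value, and the Lsd-2 summit, with the highest. TAATTA occurred in 6 of the 11 windows, 3 of them at bmm and the others at Lsd-2, Agpat4 and mdy, compared with 14.6% of all thresholded summits and 11.4% of pooled candidates. Among thresholded summits with a GC content under 35%, 22.4% held TAATTA, and 4 of the 7 summits of these genes in that class did. Among those at or above it the share was 10.3%, and 2 of 4 did. TAATGA was in 5 of 11 windows, at bmm, mdy, Agpat4, Lpin and Seipin, against 12.7% and 11.4%.

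The other motifs were scarcer. The forkhead-type sequence was in 3 windows, at bmm and mdy, against 10.4% of thresholded summits, and the TATA box in 3, at the same genes, against 29.6%. The Dref site occurred once, in the bmm promoter window printed above, where it overlaps a TAATTA (3.26% of thresholded summits), and the GAGA repeat once, at the edge of the Lsd-2 window (5.38%). The E-box occurred once, at a weaker intronic summit of bmm (2.76%), and the GATA-type core in 2 windows, the strongest of bmm and that of mdy (14.1%). A match describes letters in the window and does not show what binds there. The part of GC content in these counts was not tested beyond the classes given.

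In the 300 bases before the 5′ end of each gene, TAATTA was found at bmm, Hsl, Lsd-2, Gpat4 and Agpat4, thus at 5 of 10 genes and 22.9% of protein-coding genes. The TATA box was found at 6 of 10 (48.0%), with both Lip3 and mag among them. TAATGA was found at 3 of 10, namely bmm, mdy and Lpin (18.9%). The GATA-type core was found at 4 of 10, namely mag, bmm, Hsl and Seipin (19.8%), and the Dref site at 1, bmm (8.59%). The forkhead-type sequence (8.48% of protein-coding genes), the GAGA repeat (5.89%) and the E-box (3.38%) were found at 0 of 10.

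Other genes of triglyceride metabolism were often marked too. In a list of 30 such genes, also drawn up with earlier results known, 14 (46.7%) had a thresholded summit in reach, against the 21.0% of all protein-coding genes, and 7 (23.3%) had one within 500 bp of a TSS, against 12.7%. Lip1 and Lip2 reach the same summit, and that of Agpat3 is the Agpat4 summit, so the genes are not independent. Longer genes hold more summits, and this list was not split by span, so its shares lack a background of like length. Unlike the 10 genes, it includes genes over 20 kb. Of these, PAPLA1, HDAC4, Hnf4 and Apoltp had a thresholded summit, and foxo and Itpr had none. By role, 4 of 6 other lipases and hydrolases, 3 of 7 genes of synthesis, 1 of 4 droplet genes, 4 of 10 genes of mobilisation and its regulators and 2 of 3 genes of lipoprotein export had a thresholded summit. The strongest promoter summit was at PAPLA1, a phospholipase gene for phosphatidic acid, with a signal of 392 (rank 364), 117 in replicate 1 and 271 in replicate 2.

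Next came the nuclear receptor gene Hnf4 (signal 249, rank 813, 210 bp upstream of a TSS) and sturkopf, for a droplet protein, with 234 (rank 914). The sturkopf summit was nearer to Herc4, whose TSS lay 103 bp away. Sik3, for a salt-inducible kinase, had a promoter summit of 226 (rank 975), with 39.2 in replicate 1 and 177 in replicate 2. The remaining promoter summits were at Lip4 (133, rank 2397), mino (123, rank 2710) and adp (122, rank 2749), close to the weakest thresholded signal of 121. Dgat2, Fitm, Akh and Stim had no pooled candidate in reach.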

How the data were processed

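Signal values were analysed as deposited by the authors. As listed in the deposited text of either library, each replicate has a list of peaks and background made against a control as input for IDR (a method that scores reproducibility between replicates), a pooled list was made from both, and the optimal IDR thresholded set was derived from these lists. Per the labels, DNA was sonicated to 200 to 800 bp and positions are on dm6. Which peak caller, IDR cutoff and read depths applied is not given in the sources used here, so no value has an interval from reads. All 2790 thresholded peaks occur in the pooled list with the same summit and signal, and are its 2790 strongest.

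Adding the deposited offset to a peak start gave its summit, counted from 1. Ensembl release 115 (BDGP6.54) supplied genes and TSSs of all transcripts, transposable elements left out, and NCBI Release 6 the sequence. No peak reached beyond the end of its arm. Summits within 200 bp in different lists were taken as the same site. A gene without a candidate was placed at 100% in medians of rank. The genes, the list of 30 other genes and the motifs were chosen with earlier results of these data known, so no test was made, and counts stand beside the same count over all protein-coding genes or peaks. The genes named are the 10 chosen, those of the list with a promoter summit (500 bp) in the thresholded set, and neighbours whose TSS was nearer to a thresholded summit. Others were named after their values were seen. Alternatives were other TSS windows, the nearest TSS alone, gene 5′ ends, the stronger 50% of peaks, each replicate alone and other definitions of a shared site. On simulated data, 200 of 200 planted summits were recovered for their gene among 13945 genes. Work was done with pandas 2.3.3, matplotlib 3.10.9, scipy 1.17.1 and numpy 2.4.6 under Python 3.11.15.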

Additional observations from a re-analysis of the deposited data

How the results depend on the processing

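The count of 7 genes with a thresholded summit ranged from 5 to 7 over the alternatives. With the 2790 strongest candidates of 1 replicate in place of the thresholded set, it was 7 without replicate 1 (20.5% of protein-coding genes) and 5 without replicate 2 (20.7%), where Seipin and Agpat4 dropped out. The count within 500 bp of a TSS was 6 (12.2%) and 3 (12.9%) in the same order, mdy entering without replicate 1. It was 5 with a 250 bp window (10.2%), with 1 kb (15.2%) and with the nearest TSS alone (9.44%), and 4 in the stronger 50% of peaks (7.16%). The median rank of the strongest candidate ranged from 2.64% without replicate 1 to 8.7% without replicate 2. The 11 thresholded summits became 6 in the stronger 50% of peaks, and 8 to 11 otherwise. The share of protein-coding genes with a thresholded summit was 16.7% with a 500 bp window, 18.0% with 1 kb, 12.9% when each summit went to its nearest TSS alone and 12.2% in the stronger 50% of peaks. The 10 summits found in both replicates stayed 10 under every other definition of a shared site tried. No paired analysis was possible because the study has 1 group and no contrast.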

Other observations

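The strongest bmm window, printed in the report, holds a perfect inverted repeat, found after the sequence had been read. AATTGAAGATAA on the strand of the gene is followed after 18 bases by TTATCTTCAATT, with the centre 5.5 bases from the summit. Each arm holds a GATA-type core. An inverted repeat with arms of at least 12 bases occurred in this 1 of the 11 windows of these genes, in 1.18% of all thresholded windows (33 of 2790) and in 0.7% of pooled windows (210 of 30000). The limit of 12 bases is the arm length of this repeat, so the shares are no test of its rarity. They are also not matched for GC content, which was the lowest of the 11 in this window (26.9%).

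The Seipin summit lies in a stretch of 26.7 kb on X (2608898 to 2635585) in which replicate 1 had no candidate. The median gap between candidates of replicate 1 was 1.87 kb, and 1.6% of its gaps were longer than this one. More than 200 bp inside the stretch, replicate 2 had 3 candidates, the pooled list 2 and the thresholded set 1, the Seipin summit. The reference has an HMS-Beagle transposable element of 7.06 kb in it, at 2610440 to 2617499. None of the 166 words of 36 bases in the Seipin window occurs elsewhere on the 6 arms, on either strand, and its GC content was 42.3%. Why replicate 1 lacks the peak was not tested.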
